A study of Mus musculus with 8 samples.

Results

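The locus of tyrosine hydroxylase (Th) was described in 8 ATAC-seq libraries of the mouse line SN4741. In ATAC-seq a transposase inserts adapters where chromatin is accessible, and such stretches then show as peaks of sequenced fragments. All peaks of the 8 lists that touched the Th gene body or the 50 kb on either side of it were taken. This window (mm10, chr7:142842752-142981128) held 56 of the 581582 peaks called in all. Peaks of the 8 libraries that overlapped by at least 1 bp were merged, and a merged region was kept when at least 2 libraries called it. The 56 peaks fell into 8 such regions, named R1 to R8 here in genome order, of 84777 in the genome.

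Th encodes the enzyme that converts tyrosine to L-DOPA, the rate-limiting step in the synthesis of dopamine, noradrenaline and adrenaline. It needs tetrahydrobiopterin as a cofactor. The gene is the classical marker of catecholaminergic neurons, including the dopaminergic neurons of the substantia nigra, and its promoter is known for a cyclic AMP response element (CRE) close to the start. An open region far from a start is often, though not always, a regulatory element.

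SN4741 is reported to be a clonal line from embryonic substantia nigra of transgenic mice, which carry a temperature-sensitive SV40 T antigen behind 9 kb of Th 5′ promoter sequence. All libraries come from this line and so share its reported transgene, whose presence the peak lists cannot show. The labels give the genotype as WT and the cell type as neural precursor cells. At 37 °C, which the study calls permissive, cells grew in 10% fetal bovine serum, and at 39 °C, which it calls non-permissive, they were kept in 0.5% serum for 48 h. Temperature and serum therefore cannot be told apart. Each temperature had 4 libraries, made from 50000 cells per library with 12 amplification cycles, and nothing in the labels says that replicates came from separate cultures, so the p-values measure the spread between these libraries only.

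The peak caller kept 49.8 to 169 M (mega) fragments at 37 °C and 52.7 to 71.2 M at 39 °C. Only 2 libraries, replicates 1 and 4 at 37 °C, exceeded 100 M. The lists were also longer at 37 °C (74026 to 92013 peaks) than at 39 °C (54845 to 68410), which matters for every rank given below. Fold enrichment is the pileup of fragments at a summit over one genome-wide background per library. Its percentile is the share of peaks in the same list with an equal or lower fold enrichment. The −log10 q-values put the peaks of each list in the same order as fold enrichment, so their percentile is not given separately.

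Th is transcribed from the minus strand. The principal transcript, Th-201, runs over chr7:142892752-142900014, and distances are given from its start at base 142900014. Of 6 annotated transcripts, Th-202 and Th-206 begin 31.1 kb further upstream, at up to base 142931128. In 0 of 8 libraries did a peak lie within 1 kb of that far start, and the nearest peak was 1159 to 2422 bp from it. All 8 libraries had a peak at the start of Th-201, near which Th-203 and Th-204 also begin.

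The strongest signals of the locus sat at 2 places, and their sequences are shown here because the results turn on them. R2 (chr7:142899970-142903278) covers the start of Th-201, with its summit 151 bp upstream. R3 (chr7:142904240-142907396) has its summit 5.8 kb upstream, in an intron of Th-202 and Th-206. The 300 bases around each summit are given on the strand of the gene, from the RefSeq copy of GRCm38.p6, and capitals mark matches to a CRE (TGACGTCA), an AP-1 site (TGANTCA), an SP site (GGGCGG) or an NBRE (AAAGGTCA), searched on both strands.
R2 summit, chr7:142900015-142900314: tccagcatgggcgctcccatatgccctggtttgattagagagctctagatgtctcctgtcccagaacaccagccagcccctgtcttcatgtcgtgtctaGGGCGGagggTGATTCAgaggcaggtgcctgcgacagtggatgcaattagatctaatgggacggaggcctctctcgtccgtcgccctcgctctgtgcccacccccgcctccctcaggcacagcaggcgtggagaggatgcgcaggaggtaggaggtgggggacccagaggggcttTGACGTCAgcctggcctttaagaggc
R3 summit, chr7:142905692-142905991: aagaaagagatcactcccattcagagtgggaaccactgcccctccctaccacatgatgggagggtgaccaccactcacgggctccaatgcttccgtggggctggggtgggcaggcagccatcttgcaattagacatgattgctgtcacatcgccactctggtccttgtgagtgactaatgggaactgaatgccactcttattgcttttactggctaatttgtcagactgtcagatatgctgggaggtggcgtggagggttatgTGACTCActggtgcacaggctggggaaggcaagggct

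The R2 sequence ends at the base before the start. Its CRE begins 26 bp upstream of the start, and 1.79% of 32851 RefSeq promoters of the same length hold these letters, as do 0.770% of the summit windows of all consensus regions. The AP-1 letters lie 191 bp and the SP letters 201 bp upstream, where 7.81% and 35.7% of promoters have such a match. R3 holds 1 AP-1 match (32.7% of all regions have one) and no CRE. Neither sequence has an NBRE, the element of the orphan receptor Nr4a2, the Pitx letters TAATCC or the TATA letters TATAAA, which 1.51%, 7.06% and 13.6% of promoters hold. Each has an E-box (CANNTG, not capitalised), which 72.3% of promoters and 79.1% of regions also have. A match is a description of these letters and not a bound site.

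**Figure D1:**
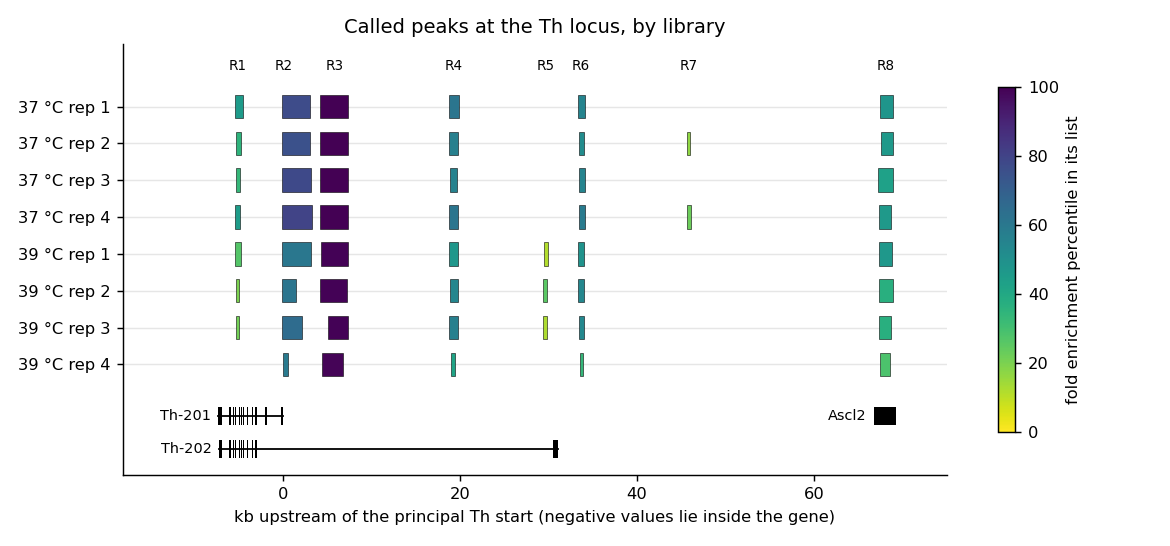
Peaks called at the Th locus in each library (rows) against kb upstream of the Th-201 start (x axis, negative values inside the gene). Each box spans the outer ends of a library's peaks in 1 region and is coloured by fold enrichment percentile, with Th-201, Th-202 and Ascl2 drawn below (exons for Th, the gene body for Ascl2). R3 has the highest percentile in all 8 libraries (99.20 or above) and R2 the next highest (59.1 or above), while R5 appears in 3 libraries at 39 °C and R7 in 2 at 37 °C.

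R3 was one of the highest peaks of the genome that do not lie at a start. At 37 °C its fold enrichment was 141, 168, 163 and 147 in replicates 1 to 4, and at 39 °C it was 155, 144, 163 and 89.9. The temperatures overlapped, and only replicate 4 at 39 °C, the library with the shortest list, stood below the rest. Among the 28663 regions called by all 8 libraries and over 1 kb from every annotated start, R3 ranked 13 to 18 at 37 °C and 32 to 46 at 39 °C. In mean fold enrichment 23 such distal regions were higher, and 202 regions of any kind among the 44861 called by all 8 libraries. Its summit lay within a stretch of 6 bp in all 8 libraries, and that of the much weaker R4 within 1 bp.

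The start itself gave a much lower signal. R2 had a fold enrichment of 20.6, 21.9, 26.5 and 23.2 in the 4 libraries at 37 °C. At 39 °C the values were 13.2, 13.1, 16.7 and 10.5, all below the lowest library at 37 °C. Of the regions called by all 8 libraries, 16.9% had a lower fold enrichment at 39 °C without overlap and 2.85% a higher one. Fewer cells with an open start, less opening per cell and a change at transgenic copies of the promoter cannot be told apart in these bulk libraries. The fold enrichment of R3 was 6.17 to 7.67 times that of R2 at 37 °C and 8.59 to 11.7 times at 39 °C. A ratio of R3 to the region that was higher at 39 °C without overlap was found for 11.7% of the other regions called by all 8 libraries.

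**Figure D2:**
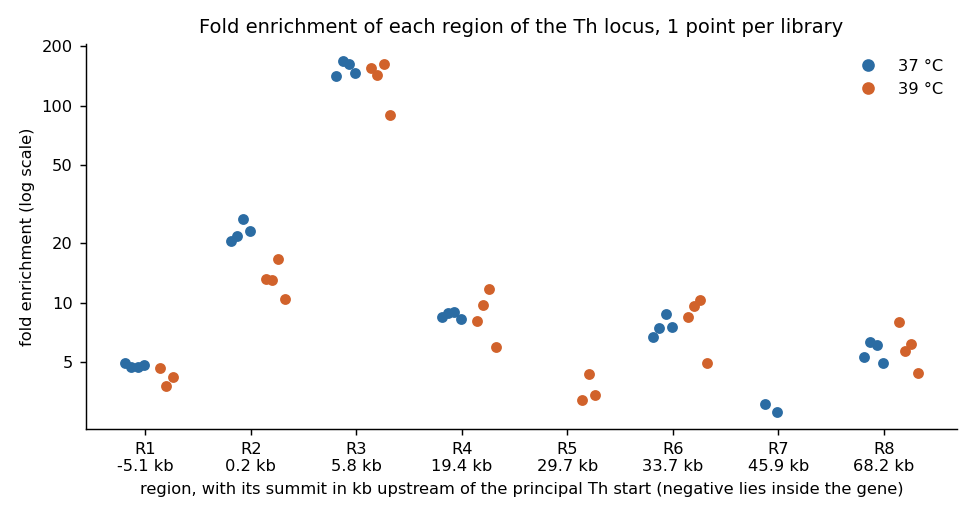
Fold enrichment (y axis, log scale) of each region of the Th locus (x axis, with the summit in kb upstream of the Th-201 start), 1 point per library, for 37 °C and 39 °C. R3 lies at 89.9 to 168 in all 8 libraries, R2 between 10.5 and 26.5 with the groups apart, and every other region at 11.8 or below.

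To ask whether accessibility at the locus differed between the temperatures, an exact permutation test on the group means was run over all 70 assignments of the libraries, two-sided, and the 13 p-values were adjusted by the Benjamini-Hochberg method. The smallest p this design allows is 0.0286, which becomes 0.0743 after adjustment, so no result of the locus passed 0.05 once adjusted. The fold enrichment percentile of R2 was 77.1, 75.2, 77.9 and 79.7 at 37 °C, and 60.2, 61.3, 64.9 and 59.1 at 39 °C. The means were 77.4 ± 1.88 and 61.4 ± 2.52 (SD, n = 4 each), a difference of -16.1 points with no overlap (exact permutation p = 0.0286, adjusted p = 0.0743).

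Percentiles were lower at 39 °C in most of the regions called by all 8 libraries. Without overlap between groups, 54.4% of these regions were lower at 39 °C and 0.814% were higher, and the median difference was -6.81 points. A scale that does not depend on the length of the lists was therefore set beside it, the log2 of fold enrichment over the median of the regions called by all 8 libraries. On this scale R2 stood at 0.36, 0.43, 0.78 and 0.44 at 37 °C and at -0.31, -0.21, -0.07 and 0.11 at 39 °C. The groups again did not overlap (difference -0.62, exact permutation p = 0.0286, not adjusted), as was so in the lower direction for 16.5% of the regions called by all 8 libraries and in the higher direction for 22.9%. Of these regions, 3.83% had a lower difference than R2 on the log2 scale and 18.6% on the percentile scale.

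R3 behaved otherwise on the 2 scales. Its percentile ranged from 99.82 to 99.90 at 37 °C and from 99.20 to 99.49 at 39 °C, without overlap (difference -0.552 points, exact permutation p = 0.0286, adjusted p = 0.0743). On the log2 scale its mean was 3.25 ± 0.15 in the 37 °C libraries against 3.23 ± 0.02 in those at 39 °C (SD, 4 libraries per group), a difference of -0.02 with overlap (exact permutation p = 0.714). At 39 °C, then, more peaks of the list stood above R3, with ranks of 333 to 514 against 89 to 151, while its height over the typical shared region was within the spread of the libraries.

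**Figure D3:**
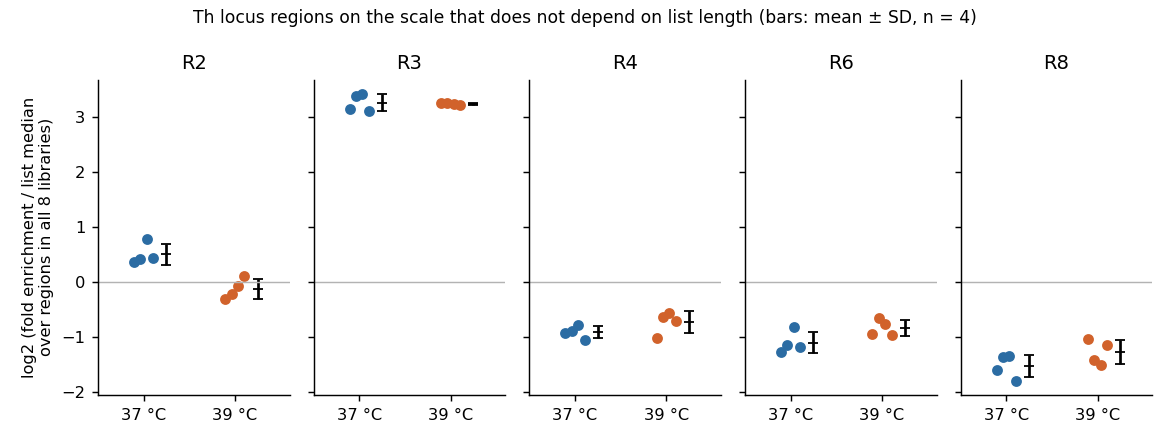
The log2 of fold enrichment over the list's median for regions called by all 8 libraries (y axis), at 37 °C and 39 °C, for the 5 regions of the Th locus that all libraries called. Points are libraries and bars are means ± SD (n = 4). R2 is the region whose groups do not overlap, at 0.36 to 0.78 and -0.31 to 0.11.

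Peaks over R2 and R3 were also wider in every library at 37 °C than in any at 39 °C. In R2 the summed width was 3188, 3157, 2843 and 2987 bp at 37 °C and 2336, 1514, 1782 and 652 bp at 39 °C (means 3044 ± 160 and 1571 ± 702 bp, exact permutation p = 0.0286, adjusted p = 0.0743). In R3 it was 3146, 3154, 3125 and 3150 bp at 37 °C, and 3042, 3020, 2256 and 2335 bp at 39 °C (3144 ± 12.9 and 2663 ± 426 bp, exact permutation p = 0.0286, adjusted p = 0.0743). Of the regions called by all 8 libraries, 24.1% were narrower at 39 °C without overlap and 0.740% were wider. Relative to the median width of each list the R3 groups overlapped (exact permutation p = 0.0857, not adjusted).

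R2 was called as 2 separate peaks in replicates 3 and 4 at 37 °C and replicates 1 and 3 at 39 °C, and as 1 peak in the other libraries. Replicate 1 at 39 °C reached 3148 bp upstream of the start, within the 3112 to 3264 bp of the 37 °C libraries, and its smaller summed width came from the gap between its peaks. The other libraries at 39 °C reached 636 to 2239 bp upstream. The end of R2 inside the gene lay at the identical base, 142899970, in 7 of 8 libraries, and replicate 4 at 39 °C began 29 bp from it. This base is 44 bp downstream of the Th-201 start and 9 bp before the first base of the ATG at 142899961. The upstream end was spread over 2628 bp. An end shared to the base by 7 or more libraries was found in 0.138% of the regions called by all 8 libraries (62 regions), and over those regions the spread of the left end had a median of 322 bp. This measure was chosen after the ends had been seen.

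**Figure D4:**
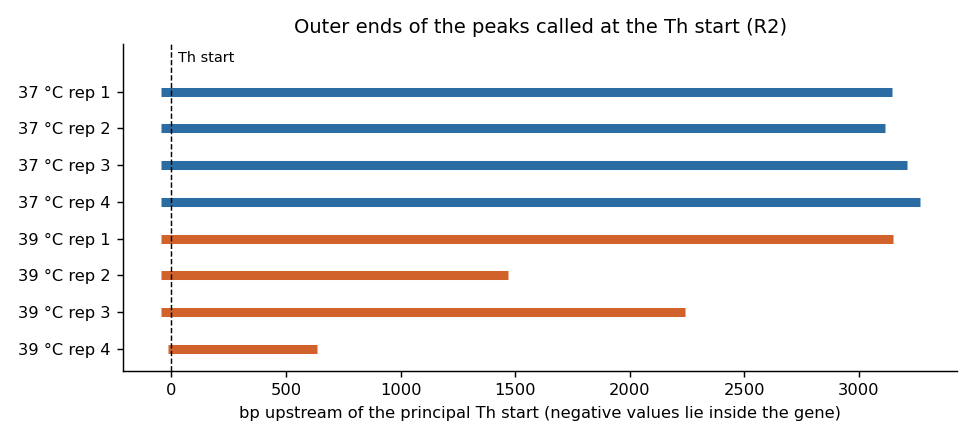
Outer ends of the peaks called at the Th start (R2) in each library (rows), in bp upstream of the Th-201 start (x axis), with gaps between peaks not drawn. The end inside the gene is at the same base in 7 of 8 libraries, 44 bp downstream of the start, while the upstream end varies over 2628 bp.

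The reported transgene adds Th promoter sequence to the genome of the line, so the 9 kb upstream of the start were set beside their surroundings. Peaks covered 69.9, 69.6, 65.8 and 67.7% of these 9 kb at 37 °C. At 39 °C they covered 59.3, 49.9, 44.4 and 33.0%, all below the lowest library at 37 °C. The means were 68.2 ± 1.90% and 46.6 ± 11.0% (SD, n = 4 each), a difference of -21.6 percentage points (exact permutation p = 0.0286, adjusted p = 0.0743), which with equal numbers of peaks per list was -16.4 points (exact permutation p = 0.114). Other genes were compared in the same way. Among the 13527 protein-coding genes with some cover in all 8 libraries, 28.4% were lower without overlap and 0.229% were higher. The median difference over them was -2.48 points, and 6.28% had a lower difference than Th.

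Little was covered on either side of this stretch. The 9 kb on the gene side of the start were covered to 0.178 to 10.8%, and the next 9 kb upstream, from 9 to 18 kb, to 0% in every library. The 9 kb windows from 18 to 54 kb upstream were covered to at most 12.7%. Over the same window of 21911 protein-coding genes the median cover was 5.72 to 10.1% per library, and 1.61 to 5.35% of genes were covered as much as Th or more. A higher fold enrichment within the 9 kb was found for 0.443 to 2.58% of the genes.

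**Figure D5:**
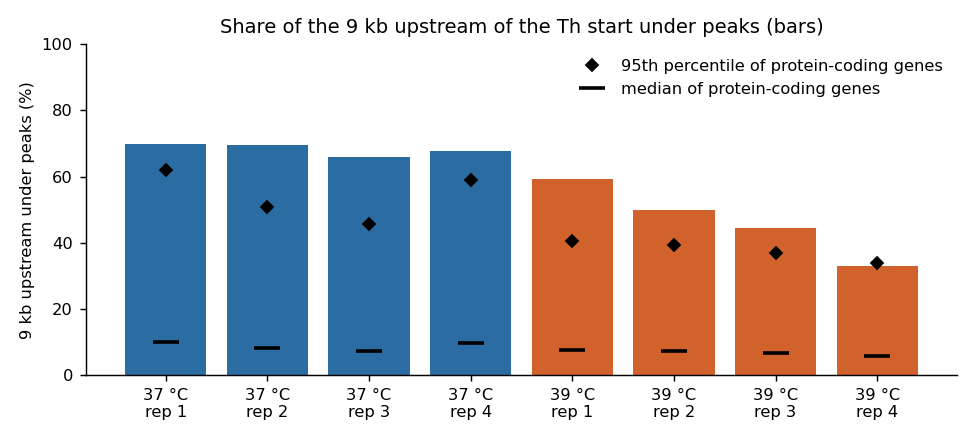
Share of the 9 kb upstream of the Th-201 start under peaks (y axis, %), 1 bar per library at 37 °C and 39 °C, with the median and the 95th percentile of the same window over 21911 protein-coding genes. Th exceeds the 95th percentile in 7 of 8 libraries and lies just under it in replicate 4 at 39 °C.

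The part of extra promoter copies in these heights was not tested. Peaks were called without a control library, so a stretch present in more copies gives more fragments at the same accessibility, and fragments of the transgene and of the native gene cannot be told apart in peak lists. The authors also reported an unstable karyotype with most chromosomes triploid, and fold enrichment was not corrected for chromosome copies. The species of the transgenic promoter is not given in the sources used here. In the reference genome the sequence around both summits is single-copy, as all 11 of 11 words of 50 bases tested in R2, and 11 of 11 in R3, matched 1 place each. Masked repeats made up 14.2% of R3 and over 50% of 2 of the 23 distal regions above it. Within the 9 kb, R3 stood at 6.17 to 11.7 times R2, while the stretch from 9 to 18 kb upstream was covered to 0%. The end of R2 inside the gene lay at the identical base in 7 of 8 libraries. Of 13128 protein-coding genes with a promoter peak in all 8 libraries, 15.1% had a lower mean percentile than Th at 37 °C and 11.1% at 39 °C. None of these values is a test of the number of copies.

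Inside the gene, R1 (chr7:142894619-142895559) lay 5.1 kb downstream of the start with its summit in an intron of Th-201. It was called in 4 of 4 libraries at 37 °C, with fold enrichments of 4.94, 4.70, 4.74 and 4.81, and in 3 of 4 at 39 °C, with 4.67, 3.80 and 4.19. Replicate 4 at 39 °C had no peak there. These are low values, at the 19.9th to 45.4th percentile of their lists.

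Further upstream, 3 regions were called by all 8 libraries. R4 (chr7:142918814-142919956), 19.4 kb upstream within the long transcripts, had percentiles of 55.7 to 61.1 at 37 °C and 41.4 to 57.0 at 39 °C (exact permutation p = 0.0857, adjusted p = 0.159). R6 (chr7:142933404-142934173), between genes 33.7 kb upstream, gave 51.6 to 58.9 and 33.7 to 53.8 (exact permutation p = 0.143, adjusted p = 0.206). Both groups overlapped in each case. R8 (chr7:142967264-142968971) lies within the gene body of Ascl2, a basic helix-loop-helix factor gene, less than 1 kb from its principal start, and ranged from 43.2 to 48.0 and from 28.1 to 46.5 (exact permutation p = 0.114, adjusted p = 0.186). The direction of these 3 differences depended on the scale, since on the log2 scale over the shared regions the mean of each was higher at 39 °C, again with overlap. Their widths overlapped too, with adjusted p of 0.371 (exact permutation tests).

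The remaining regions were weak and called in few libraries. R5 (chr7:142929402-142929969), 29.7 kb upstream and near the first exon of the long transcripts, was called in 0 of 4 libraries at 37 °C and in 3 of 4 at 39 °C, with fold enrichments of 3.20, 4.36 and 3.39. R7 (chr7:142945686-142946146), 45.9 kb upstream, was called only in replicates 2 and 4 at 37 °C, at 3.07 and 2.80. Fisher's exact test gave p = 0.143 for R5 (adjusted over all consensus regions, p = 0.873) and p = 0.429 for R7. Calls in 0 of 4 and 3 of 4 libraries were seen in 0.669% of consensus regions. No region of the locus was called in all 4 libraries of one temperature and none of the other, as 6.04% of consensus regions were for 37 °C and 0.314% for 39 °C. R7 holds an NBRE match and 2 AP-1 matches in its summit window, and R6 holds 1 AP-1 match.

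Across the window as a whole the number of peaks was 6, 7, 7 and 8 at 37 °C and 8, 7, 8 and 5 at 39 °C, with a mean of 7.0 in both (exact permutation p = 1.0). These peaks covered 10.6, 10.3, 9.56 and 10.4 kb at 37 °C and 9.63, 8.41, 7.81 and 5.05 kb at 39 °C. The difference of -2.50 kb was short of the threshold (exact permutation p = 0.0571, adjusted p = 0.124). It rested in part on single libraries, at -1.61 kb without replicate 4 at 39 °C and -3.13 kb without replicate 1 at 39 °C (exact permutation p = 0.0286, not adjusted, for the latter). The 2 long noncoding RNA genes that reach into the window, Gm6471 and Gm39117, had no promoter peak in any library.

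Promoter peaks were then counted for the listed genes of catecholamine synthesis and transport. A promoter peak means a peak within 1 kb of an annotated start, and 59.9% of protein-coding genes had one in all 8 libraries. After Th, Ddc makes dopamine from L-DOPA, Dbh makes noradrenaline and Pnmt makes adrenaline. Ddc had a promoter peak in 0 of 8 libraries, Dbh in 2 of 4 at 37 °C and 0 of 4 at 39 °C, and Pnmt in 4 of 4 and 0 of 4, as was so for 1.47% of protein-coding genes. Of the transport genes, the vesicular transporter Slc18a2 had none, and the dopamine transporter Slc6a3 had a peak in 4 of 4 libraries at 37 °C and 1 of 4 at 39 °C, at the 18.2nd percentile or lower. The tryptophan hydroxylases Tph1 and Tph2, relatives of Th, each had one in 3 of 4 and 1 of 4.

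Of the cofactor genes, 4 of 5 were called at the promoter in all 8 libraries. Gch1, which makes the first step of tetrahydrobiopterin synthesis, had percentiles of 84.3 to 86.4 at 37 °C and 76.8 to 81.8 at 39 °C. Pts and Spr, which complete the synthesis, and Qdpr, which regenerates the cofactor, were at 87.7 or above in every library, and their groups overlapped. Pcbd1, a further recycling enzyme, had no promoter peak.

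Of 5 factors known to act on Th, 4 had a promoter peak in all 8 libraries. Nr4a2 ranged from 93.9 to 94.9 at 37 °C and from 93.8 to 94.1 at 39 °C, with overlap. Pitx3 (84.8 to 90.1 and 77.4 to 83.9) and Foxa2 (86.5 to 89.6 and 79.7 to 80.6) did not overlap. En1 did (77.6 to 83.1 and 76.7 to 78.9), and Lmx1b had a peak in 4 of 4 libraries and 2 of 4. These are percentiles of promoter peaks and say nothing of expression.

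The labelled cell type was set beside its markers in the same way. Of 6 neural precursor markers, Nes, Sox2, Pax6 and Msi1 had a promoter peak in all 8 libraries, as did 59.9% of protein-coding genes. These 4 were lower at 39 °C without overlap, as were 52.5% of the protein-coding genes with such a peak. Sox2 was at 94.6 or above, while Pax6 was at 38.3 to 48.8 at 37 °C and 10.1 to 30.9 at 39 °C. Sox1 had a peak in 4 of 4 and 3 of 4 libraries, and Fabp7 in none. All 4 mesenchymal markers, Col1a1, Col1a2, Twist1 and Prrx1, also had a promoter peak in all 8 libraries, at 68.0 or above, and Col1a2 was lower at 39 °C without overlap.

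Over these 27 genes, 59.3% had a promoter peak in all 8 libraries, against 59.9% of protein-coding genes. Of the 16 so called, 8 were lower at 39 °C without overlap (50.0%, against 52.5% of protein-coding genes) and none was higher (0.518% of protein-coding genes). Both shares were near the background. A promoter peak in fewer libraries at 39 °C was seen for 7 of the 27 (25.9%, against 7.97% of protein-coding genes), namely Dbh, Pnmt, Tph1, Tph2, Slc6a3, Lmx1b and Sox1. Their peaks at 37 °C were at the 54.2nd percentile or lower. The lists were shorter at 39 °C, and this count was not repeated with lists of equal length. The difference of the Th promoter was -16.1 points. Over the 13128 genes with a promoter peak in all 8 libraries the median difference was -2.50 points, and 5.99% of them had a lower difference than Th.

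Genes whose promoter percentiles lay among the 5 closest to those of Th over the 8 libraries, by mean absolute difference among 21910 genes, were Fbp2 (1.79 points), Dnaaf3 (1.85), Trpv4 (1.97) and Lsm5 (1.99). Fbp2 encodes the muscle form of fructose bisphosphatase, and Trpv4 is a cation channel of osmotic and thermal sensing. Fbp2 ranged from 74.4 to 78.3 at 37 °C and from 59.6 to 67.8 at 39 °C.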

How the data were processed

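The authors aligned paired reads to mm10 with Bowtie2 (2.4.1), removed duplicates with Picard (2.26.11) and called peaks in each library separately with MACS3 (3.0.0a7) without a control or a local background, at a q-value of 0.05. The deposited lists give pileup as a signal in fragments, fold enrichment as a ratio, and the −log10 of p- and q-values. Depth and list length differed between libraries, so heights were compared as ranks within a list or against regions shared by all 8 libraries. They hold no reads.

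From the deposited lists, peaks were merged into regions and placed on GENCODE M21. A region's value was its highest peak, and its width was summed over its peaks. Tests were exact permutation tests that listed every assignment of the libraries, and presence was compared by Fisher's exact test (SciPy 1.17.1). The statistics were tested on simulated data. The genes named were Th, the genes of its window, 27 genes in lists by role, and the 5 closest to Th in promoter percentile, of which some items are not reported here. Alternatives were peaks of −log10 q at least 5, equal numbers of peaks, other windows, scales and promoter distances, and leaving out libraries. The members, lists and tests were chosen with earlier results of these data known. Sequences are from RefSeq.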

Additional observations from a re-analysis of the deposited data

How the results depend on the processing

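The R2 percentile difference of -16.1 points was -17.0 ranked among promoter peaks, -12.1 among regions called by all 8 libraries, -11.1 with lists of equal length and -17.2 to -15.3 without each library in turn. Its exact p was 0.0286 in each, the smallest these designs allow, so the p itself says nothing of stability. For R3 the difference was -0.019 on the log2 scale (exact p = 0.714) and -16.9 in fold enrichment itself (exact p = 0.457). The cover of the 9 kb came to -16.4 points with all lists at one length (exact p = 0.114), and to -25.8 to -17.1 points without each library, with an exact p of 0.0571 whenever a library at 37 °C was left out. The cover of the window was -3.13 to -1.61 kb without each library (exact p = 0.0286 without replicate 1 at 39 °C, and the smallest difference, -1.61 kb, without replicate 4 at 39 °C), and -5.80 kb with 100 kb on each side (exact p = 0.0286). The number of regions called in every library at 39 °C and none at 37 °C was 0 to 1 without each library, where R5 was gained by leaving out replicate 4 at 39 °C. Without the 2 libraries over 100 M fragments, chosen after seeing the data, the differences were -21.1 points for the 9 kb (exact p = 0.133), -15.1 for R2 and -0.552 for R3 (both exact p = 0.0667, the smallest that 2 against 4 libraries allow). The widths of R2 and R3 had an exact p above 0.05 whenever a library at 37 °C was left out (0.0571 and 0.171), and ranked among promoter peaks alone R4, R6 and R8 each gave exact p = 0.0286. In list percentile, exact p was also 0.0286 for R4 without replicate 3 at 39 °C (-11.2 points) and for R8 without replicate 1 at 39 °C (-12.0 points). The R6 difference was -3.12 points without replicate 4 at 39 °C. The cause of these changes was not tested.

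Replicate numbers were shared between the temperatures, but same-numbered libraries did not deviate together (r = 0.0971, -0.110, 0.136 and 0.0424 over regions). With the number as a replicate block the smallest exact p is 0.125, which R2 (-16.1), R3 (-0.552) and the 9 kb (-21.6) all gave. Depth and list length limit what peak lists show: a region without a peak was not called at that depth, and is not shown to be closed.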
